A study of Mus musculus with 6 samples.

Results

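The transcripts described are those of the nuclear-encoded subunits of respiratory complexes II, III, IV and V and of cytochrome c, measured by poly-A RNA sequencing of whole mouse kidney at postnatal day 60. Members were chosen by gene symbol (the Sdha to Sdhd, Uqcr, Cyc1, Cycs, Cox5 to Cox8 and Atp5 symbols) and by a minimum of 10 counts in at least 3 of the 6 libraries. The symbols matched 47 genes of the 24422 in the tables. Cox7b2 and Cox8c, an isoform of Cox7b and one of Cox8, had 0 counts in every library and were left out. The remaining 45 were members, and all 45 were among the 15171 genes tested. They divide into 4 genes of complex II, 9 of complex III, cytochrome c itself, 14 genes of complex IV and 17 symbols of complex V. The last group includes Atp5s and Atp5sl, which carry ATP synthase symbols but code for proteins that are not among the subunits of the enzyme proper.

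The study set 3 wild-type control kidneys beside 3 TfR1KO;KspCre kidneys, called knockouts here, to ask what happens to kidney transcripts when iron uptake through the transferrin receptor TfR1 (gene Tfrc) is removed from the distal nephron. All mice were of strain C57BL/6 and were fed an iron-sufficient diet with 220 ppm iron. In the knockouts both Tfrc alleles were floxed, and Cre came from the Ksp-cadherin promoter, whose activity marks distal segments, so that cells outside those segments were not targeted; the controls were littermates, and nothing in the labels says that kidneys were pooled. The labels give no sex.

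Respiratory complexes I to IV pass electrons from NADH and succinate to oxygen, complexes I, III and IV pump protons out of the mitochondrial matrix as they do so, and complex V, the ATP synthase, uses the returning protons to make ATP. Complex II, which pumps no protons, is also an enzyme of the citric acid cycle. Iron is built into this chain as heme and as iron-sulfur clusters, and tubular epithelium, the proximal tubule and thick ascending limb above all, is rich in mitochondria because it reabsorbs salt and solutes. The core subunits coded by mitochondrial DNA are not analysed here.

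Total counts were between 18036845 and 21001341 in the controls and between 11501053 and 19576330 in the knockouts, the smallest library being knockout 3. Knockout 3 also had the largest share of the ribosomal RNA gene Rn45s, at 2.59% of counts against 0.506% to 0.745% in the other 5 libraries. Control 2 had 52 Xist counts and 3980 counts of Y-linked genes, whereas the other 5 libraries had 10458 to 23845 Xist counts and at most 5 Y-linked counts. Tfrc itself had 138, 168 and 62.0 CPM in controls 1 to 3 and 214, 86.0 and 40.6 CPM in knockouts 1 to 3 (CPM, the usual unit of counts scaled to library size, here after TMM scaling). The groups overlapped, and the log2 fold change was −0.11 (SE 0.62, adjusted p = 0.911), so the whole-gene count of Tfrc in whole kidney did not tell the groups apart.

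The median log2 fold change of the subunit transcripts was negative in each of the 4 complexes, but few single members passed the test across all genes. Called lower were 1 of 4 in complex II, 1 of 9 in complex III, 3 of 14 in complex IV and 3 of 17 in complex V, against 6.64% of all genes tested. The complex V calls were Atp5k, a subunit, and Atp5s and Atp5sl, which are not subunits proper. No member was called when any single library other than knockout 1 was left out, where at most 0.0389% of all genes were called lower. The summed level of the 45 members was 21230, 22510 and 22290 CPM in controls 1 to 3 and 17430, 8897 and 8568 CPM in knockouts 1 to 3. Every knockout lay below every control, and knockout 1 lay much nearer to the controls than knockouts 2 and 3. As a share of all counts in a library, the members took 2.03%, 1.92% and 2.06% in the controls and 1.81%, 0.996% and 0.972% in the knockouts. The median log2 fold change over the members, knockout against control, was −0.90, beside 0.02 over all genes tested. In whole kidney, fewer cells of a type and less RNA per cell cannot be told apart.

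The lower levels were spread over the list. The fold change was negative for 43 of 45 members, against 48.5% of all genes tested. For 42 members all 3 knockouts lay below all 3 controls, against 22.2% of all genes, and for 1 member they all lay above, against 23.8%. Of the 39 members with at least 100 CPM in the controls, 38 stood at between 40.6% and 71.4% of their control level. Cox7a2l, a protein that holds respiratory complexes together in supercomplexes, was the exception.

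Few of these differences passed the test across all genes. With all 6 libraries, 8 of 45 members had an adjusted p under 0.05 in edgeR's quasi-likelihood test, all of them lower in the knockouts, where 6.64% of all genes tested were called lower. None was called higher, where 10.6% of all genes were. The 8 were Sdhb, Uqcrb, Cox7c, Cox8b, Cox6a2, Atp5k, Atp5s and Atp5sl, with adjusted p between 0.0396 and 0.0498, so that each lay close under the threshold. For 35 of the others the adjusted p lay between 0.0504 and 0.170. Before adjustment, 41 members had a p under 0.05, all in the lower direction, against 17.6% of all genes.

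Knockout 1 set much of this spread. Its level was the highest of the 3 knockouts for 43 of 45 members. Measured against the mean of the controls, the median member stood at −0.34 on the log2 scale in knockout 1, at −1.29 in knockout 2 and at −1.31 in knockout 3. Without knockout 1, 42 of 45 members were called lower, against 16.4% of all genes, with adjusted p between 0.00228 and 0.0309 and a median log2 fold change of −1.30; the exceptions were Atp5s, Cox6b2 and Cox7a2l. Without any single one of the other 5 libraries no member was called, where at most 0.0389% of all genes were called lower. At an unadjusted p under 0.05, 14 to 27 members were then lower, against 11.6% to 14.2% of all genes. The median of the members then lay between −0.95 and −0.73. With all 6 libraries, the Wald test of DESeq2, the package named by the study, called 40 of 45 members lower, against 15.1% of all genes, and left out Atp5d, Atp5g2, Cox6a1, Cox6b2 and Cox7a2l, while limma-voom called 8, against 6.05%.

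**Figure D1:**
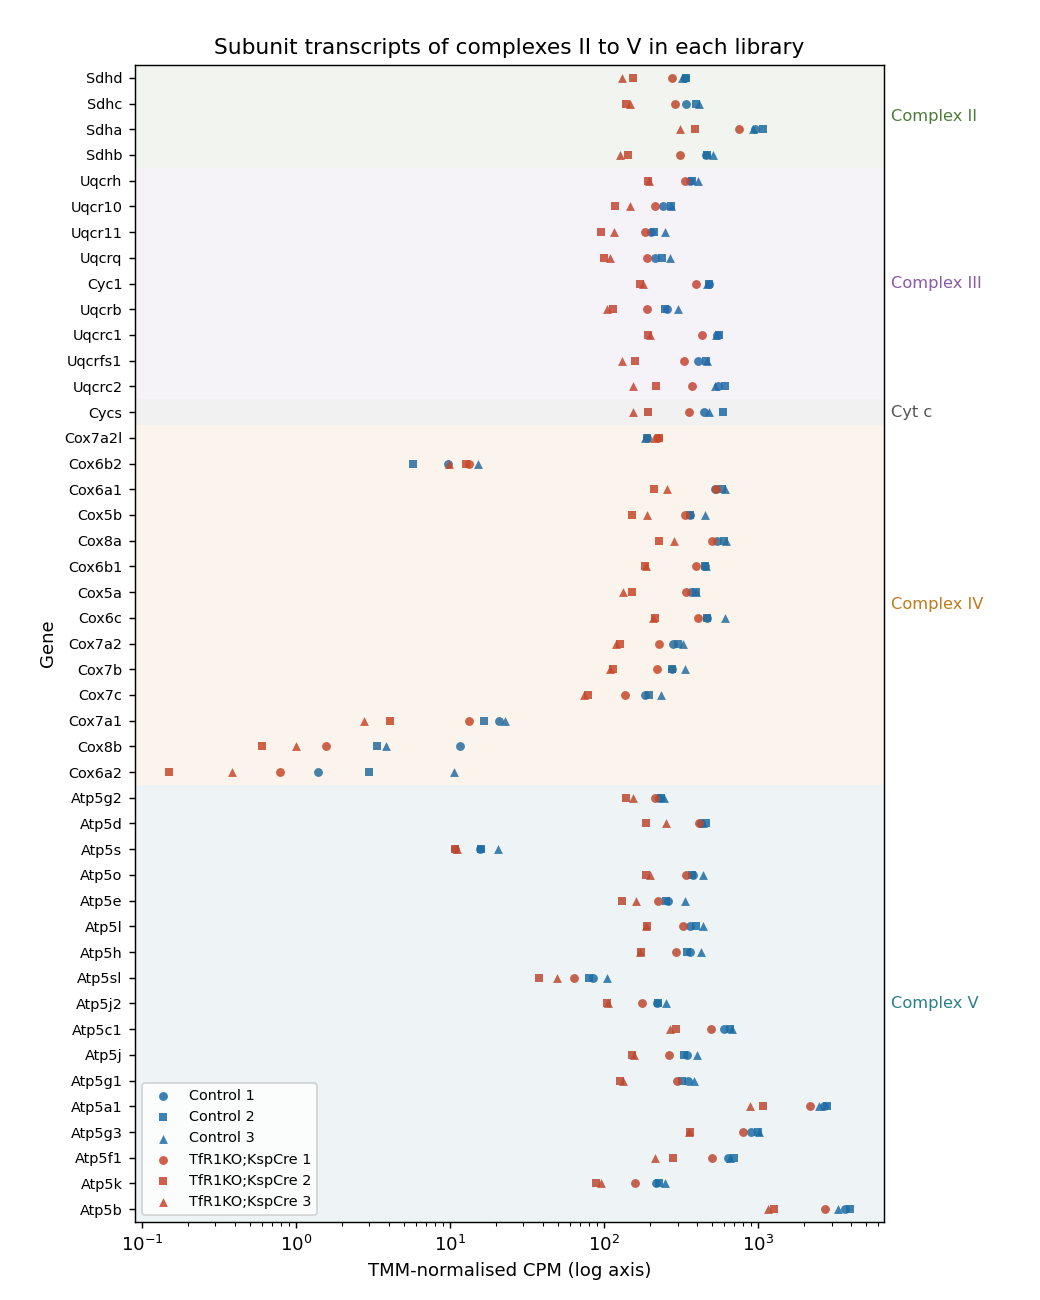
TMM-normalised CPM of the 45 member transcripts (log axis) in each of the 6 libraries, controls in blue and TfR1KO;KspCre knockouts in red, with a symbol for each replicate number, grouped by complex. For 42 genes the 3 red points lie to the left of the 3 blue ones, with knockout 1 (red circle) the highest of the knockouts for 43 genes; Cox7a2l is the member whose red points all lie to the right.

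**Figure D2:**
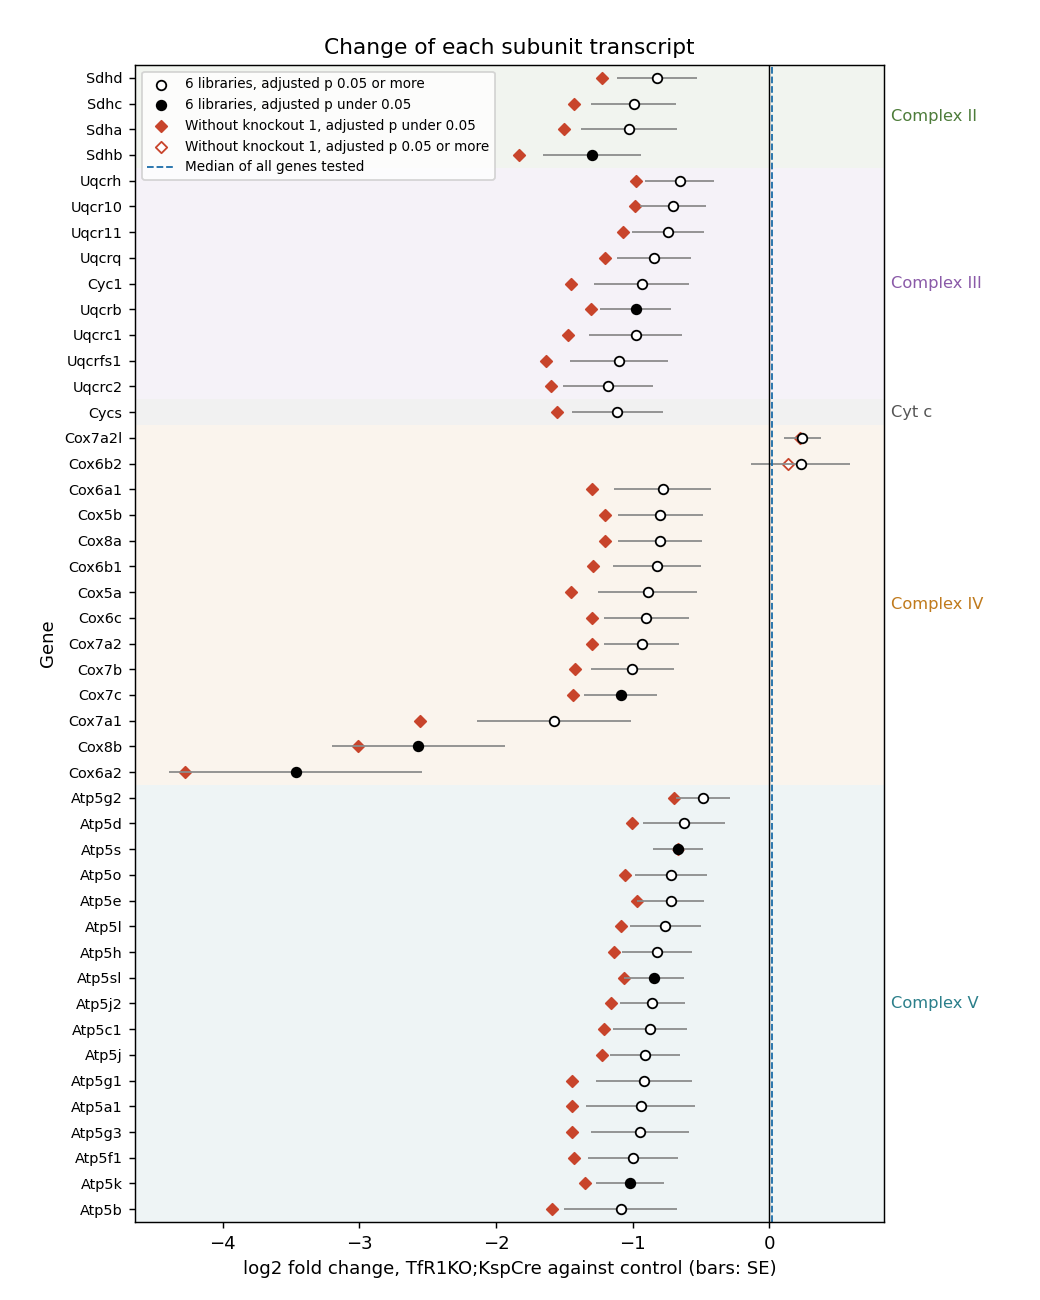
Log2 fold change of each member, knockout against control, from all 6 libraries (circles, bars showing SE, filled where the adjusted p was under 0.05) and without knockout 1 (red diamonds, filled likewise). The dashed line is the median of all genes tested, 0.02; 8 circles and 42 diamonds are filled.

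Complex II, succinate dehydrogenase, had a median log2 fold change of −1.01. All 4 subunits had the knockouts below the controls, against 22.2% of all genes tested, and 1 was called lower, against 6.64%. Sdhb, the subunit that carries the 3 iron-sulfur clusters of the enzyme, had the lowest log2 fold change among the members with at least 100 CPM in the controls. Its levels were 456, 463 and 511 CPM in the controls and 311, 142 and 127 CPM in the knockouts, which did not overlap. Sdhb fell by 1.30 on the log2 scale (SE 0.36, adjusted p = 0.0498), to 40.6% of the control mean. The call lay at the edge and was lost with upper quartile scaling, library size alone and both other filters (adjusted p from 0.0501 to 0.0546).

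Sdha, the flavoprotein subunit that oxidises succinate, had 951, 1074 and 927 CPM in the controls and 748, 389 and 310 CPM in the knockouts. The log2 fold change was −1.03 (SE 0.35, adjusted p = 0.0805). Sdhc and Sdhd anchor the enzyme in the inner membrane and hold its heme. Sdhc had 340, 395 and 412 CPM in the controls and 290, 139 and 147 CPM in the knockouts, a log2 fold change of −0.99 (SE 0.31, adjusted p = 0.0662). Sdhd had 334, 341 and 320 CPM against 278, 155 and 131 CPM, a log2 fold change of −0.82 (SE 0.29, adjusted p = 0.0886). Every one of the 3 separated the groups, with knockout 1 the closest to the controls, and none passed the threshold with all 6 libraries.

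Complex II also took a smaller part of the members' counts in the knockouts, 9.34%, 9.28% and 8.35% in knockouts 1 to 3 against 9.73% to 10.1% in the controls. This share is independent of the scaling between libraries. Complex IV took 17.1% to 19.17% in the controls and 19.16%, 19.2% and 20.9% in the knockouts, where the lowest knockout lay just inside the control range. Complex V held between 53.3% and 55.3% of the members' counts in the controls and between 53.4% and 54.3% in the knockouts, so the groups overlapped. With 3 libraries against 3, an exact permutation test cannot give a two-sided p below 0.10, and none was run on these shares.

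Complex III, the cytochrome bc1 complex, had 9 members and a median log2 fold change of −0.93. All 9 had the knockouts below the controls, against 22.2% of all genes tested, and 1 was called lower, against 6.64%. Uqcrc2, one of the large core proteins on the matrix side, had 552, 608 and 527 CPM in the controls and 371, 218 and 155 CPM in the knockouts. This was a log2 fold change of −1.18 (SE 0.33) with an adjusted p of 0.0504, just over the threshold. Uqcrc1, the other core protein, had 540, 553 and 530 CPM in the controls against 431, 193 and 200 CPM, a log2 fold change of −0.98 (SE 0.34, adjusted p = 0.0813).

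The subunits of complex III analysed here that carry iron were both lower without overlap. Uqcrfs1, the Rieske iron-sulfur protein, had 408, 461 and 463 CPM in the controls and 331, 158 and 131 CPM in the knockouts, with a log2 fold change of −1.10 (SE 0.36, adjusted p = 0.0708). Cyc1, cytochrome c1, which carries a heme, had 482, 483 and 465 CPM in the controls and 398, 172 and 178 CPM in the knockouts, with a log2 fold change of −0.93 (SE 0.35, adjusted p = 0.0971). Uqcrb, a small subunit near the ubiquinone site and named here after its value was seen, was the call of this complex, with 258, 249 and 303 CPM against 191, 115 and 105 CPM (log2 fold change −0.98, SE 0.26, adjusted p = 0.0459), a call lost with library size alone (adjusted p = 0.0617).

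The smallest differences of complex III were those of Uqcrh, the acidic hinge protein, and Uqcr10, a small membrane subunit. Uqcrh had 362, 371 and 406 CPM in the controls against 333, 193 and 195 CPM in the knockouts, with a log2 fold change of −0.66 (SE 0.25, adjusted p = 0.105). Uqcr10 had 240, 270 and 274 CPM against 215, 118 and 147 CPM, with a log2 fold change of −0.71 (SE 0.24, adjusted p = 0.0781). The groups did not overlap for either gene.

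Cycs, the soluble cytochrome c that carries electrons from complex III to complex IV, had 448, 588 and 478 CPM in the controls and 354, 192 and 154 CPM in the knockouts. The groups were separate, and the log2 fold change was −1.11 (SE 0.33, adjusted p = 0.0597). Of the 100-base stretches of its transcript, 64.9% were found nowhere in the genome outside the gene. Reads from the remainder could be lost to copies when only uniquely mapped reads are kept.

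The 6 members whose protein binds iron (Sdhb, Sdhc, Sdhd, Uqcrfs1, Cyc1 and Cycs) had a median log2 fold change of −1.05, from −1.30 to −0.82. Of these 6, 1 was called lower, against 6.64% of all genes tested. The other 39 members had a median of −0.87, and the other 8 members of complexes II and III, which share the same enzymes, a median of −0.91, from −1.18 to −0.66. The ranges overlapped, and the difference between these medians was not tested. The heme and copper centres of complex IV lie in subunits coded by mitochondrial DNA, which are not analysed here.

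Complex IV, cytochrome c oxidase, held the members with the lowest fold changes and those with a positive fold change. Its 14 members had a median log2 fold change of −0.90, 12 of them negative against 48.5% of all genes tested, and 3 were called lower against 6.64%. Per kilobase of all annotated exons of a gene, the most abundant of all 45 members in the controls were Cox8a, with 1080 ± 74.2 CPM per kilobase (SD, n = 3), and Cox6b1, with 899 ± 4.60, followed by Atp5b of complex V with 860 ± 75.2; the last 2 differed by less than the SD of Atp5b. This order turned with the length used: per kilobase of the longest coding transcript, a length chosen after the data were seen, Atp5b came first, with 1901 ± 166 CPM per kilobase, then Atp5g3 with 1345 ± 87.5 and Cox8a with 1080 ± 74.2.

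Several subunits of complex IV that are present in most tissues had levels below the controls without passing the test. Cox8a, a small membrane subunit, had 544, 599 and 623 CPM in the controls and 499, 229 and 286 CPM in the knockouts (log2 fold change −0.80, SE 0.31, adjusted p = 0.106). Cox6b1, which faces the intermembrane space, had 454, 452 and 457 CPM against 396, 186 and 189 CPM (log2 fold change −0.82, SE 0.32, adjusted p = 0.109). Both groups were separate for these 2 genes, with knockout 1 at the upper end of the knockouts.

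Cox6a1 was the ubiquitous subunit in which the groups met. Its controls had 529, 580 and 605 CPM and its knockouts 530, 211 and 257 CPM, so knockout 1 was level with control 1, and the log2 fold change was −0.78 (SE 0.36, adjusted p = 0.155). Cox7a2, the form of subunit 7a found in most tissues, had 280, 303 and 325 CPM against 227, 127 and 120 CPM, without overlap (log2 fold change −0.94, SE 0.27, adjusted p = 0.0565). Cox7b had 277, 276 and 338 CPM against 221, 115 and 109 CPM, also without overlap, which was 49.9% of the control level (SE 0.30 on the log2 scale, adjusted p = 0.0609), while its isoform Cox7b2 was not detected.

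Cox7c, named after its value was seen, was the abundant subunit of complex IV that was called. It had 184, 195 and 233 CPM in the controls and 136, 78.2 and 73.6 CPM in the knockouts, with a log2 fold change of −1.09 (SE 0.27, adjusted p = 0.0398). The knockouts all lay below the lowest control.

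The isoforms of complex IV that replace the ubiquitous subunits in heart, skeletal muscle and brown fat were scarce in kidney and had the lowest fold changes of the list. Cox8b had 11.7, 3.35 and 3.84 CPM in the controls and 1.57, 0.602 and 0.996 CPM in the knockouts. The groups did not overlap, control 1 stood far above the other controls, and Cox8b fell by 2.57 on the log2 scale (SE 0.63, adjusted p = 0.0403). Without control 1 the log2 fold change of Cox8b was −1.78 and no longer called (adjusted p = 0.0921), and limma-voom did not call it either (adjusted p = 0.0570). Cox6a2 had 1.39, 3.00 and 10.6 CPM in the controls and 0.785, 0.151 and 0.383 CPM in the knockouts, that is, 28, 51 and 176 counts against 16, 3 and 5 counts. Here control 3 stood high, the groups did not overlap, and Cox6a2 fell by 3.47 (SE 0.92, adjusted p = 0.0468); it met the count minimum in the 3 controls and knockout 1. Without control 3 the log2 fold change of Cox6a2 was −2.30 and no longer called (adjusted p = 0.116), nor did limma-voom call it (adjusted p = 0.0808). Cox7a1 had 20.9, 16.7 and 22.6 CPM against 13.3, 4.07 and 2.76 CPM, without overlap, and its log2 fold change of −1.57 (SE 0.56, adjusted p = 0.0884) did not pass. Without knockout 1 the log2 fold change of Cox7a1 was −2.55 and was called (adjusted p = 0.00288).

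Some markers of brown fat were also lower in the knockouts. Ucp1, the uncoupling protein of brown adipocytes, had 53.0, 9.05 and 9.55 CPM in the controls and 2.60, 1.46 and 0.613 CPM in the knockouts, with control 1 the highest as for Cox8b, but not for Cox6a2 or Cox7a1, which were highest in control 3. Its log2 fold change was −3.90 (adjusted p = 0.0361), and that of Cidea, a lipid droplet protein of brown fat, was −2.05 (adjusted p = 0.04998). Of the 5 fat markers, these 2 were called lower, while Adipoq (log2 fold change 0.71), Cidec (0.55) and Plin1 (−0.54) of general fat were not called. The summed level of the 5 ranged from 51.9 to 182 CPM in the controls and from 20.6 to 145 CPM in the knockouts. Of 5 skeletal muscle markers only Mylpf had enough counts to be tested, at 0.823 to 1.98 CPM in the controls and 0.933 to 1.20 CPM in the knockouts, and the muscle creatine kinase Ckm was at 0 in 3 of the 6 libraries. The part of brown fat in the isoform values was not tested.

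Cox6b2, a form of Cox6b1 best known from testis, and Cox7a2l were the 2 members with a positive fold change. Cox6b2 had 9.75, 5.76 and 15.1 CPM in the controls and 13.3, 12.8 and 9.81 CPM in the knockouts. The groups overlapped, and the log2 fold change of 0.23 (SE 0.36, adjusted p = 0.668) turned to −0.07 without control 2. Cox7a2l had 189, 189 and 184 CPM in the controls and 224, 228 and 212 CPM in the knockouts, so every knockout lay above every control and knockout 1 did not stand apart. The log2 fold change of 0.24 (SE 0.13, adjusted p = 0.227) did not pass the threshold, and reached it with scaling to library size alone, at 0.51 (adjusted p = 0.0409), a scaling that also moved the median of all genes to 0.29.

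Within the subunit 7a family the shares differed between the groups, and these shares do not depend on scaling. Per kilobase, Cox7a2l made up 27.8%, 26.9% and 24.5% of the counts of Cox7a1, Cox7a2 and Cox7a2l in the controls and 36.6%, 52.6% and 52.6% in the knockouts. Cox7a2 went from between 62.5% and 66.0% to 56.6%, 44.5% and 45.3%. In knockouts 2 and 3 Cox7a2l was thus the most abundant of the 3 transcripts, which Cox7a2 was in the controls and in knockout 1. Of the 100-base stretches of Cox7a2l, 63.7% were found nowhere in the genome outside the gene. In the subunit 8 family, Cox8b was at most 3.13% of the family in the controls and at most 0.521% in the knockouts, and in the subunit 6a family Cox6a2 went from between 0.280% and 1.83% to between 0.0762% and 0.159%.

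**Figure D3:**
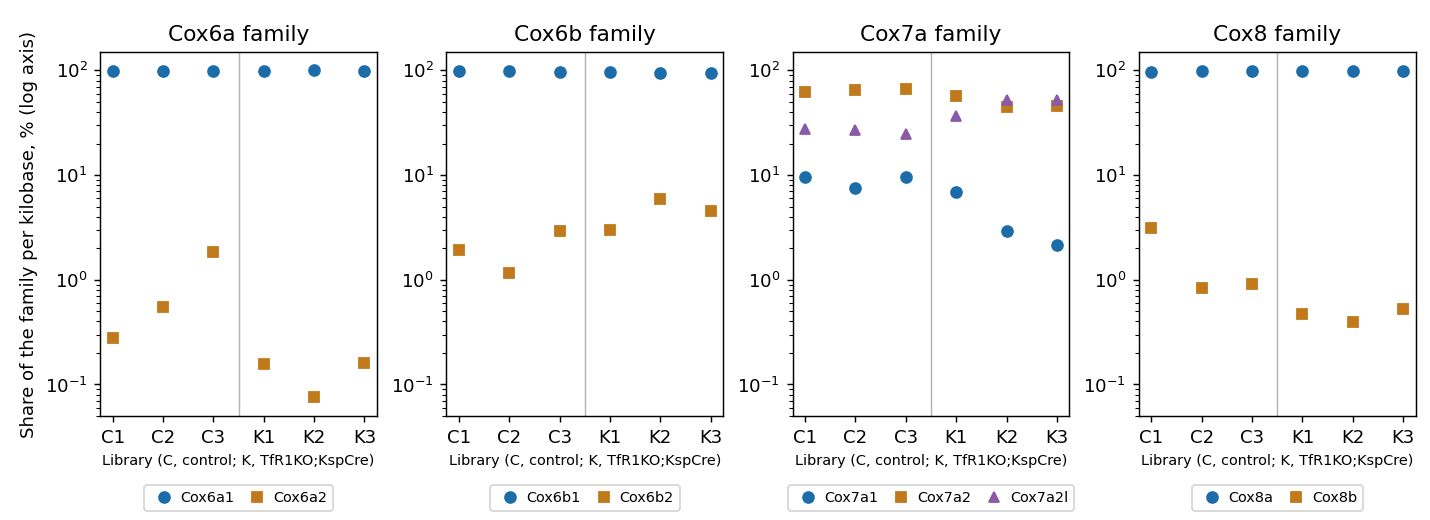
Share of each isoform in its family's counts per kilobase (log axis) in controls C1 to C3 and knockouts K1 to K3, for 4 families of complex IV subunits. Cox7a2l is 24.5% to 27.8% of its family in the controls and 36.6% to 52.6% in the knockouts, while Cox7a1, Cox6a2 and Cox8b take smaller shares there than in any control.

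The genes of these isoforms lie apart in the genome and have unlike promoters. In GENCODE M1 on NCBIM37 (mm9), Cox7a1 lies at chr7:30969190-30971047 on the plus strand, Cox7a2 at chr9:79603048-79607660, Cox7a2l at chr17:83901259-83913673, Cox8a at chr19:7289648-7292106, Cox8b at chr7:148084842-148086345 and Cox6a1 at chr5:115795651-115798990, the last 5 on the minus strand. The 250 bases before the RefSeq start of each (GRCm38.p6, in the direction of the gene) are shown because isoforms of one subunit had unlike fold changes. Capitals mark the letters GCGCATGCGC (NRF1, GCGCA joined with its reverse complement), CCGGAAG (ETS) and GGGCGG (SP) on either strand, motifs of factors known to act on genes of the respiratory chain; AAGATGGC (YY1) was searched too.
Cox6a1, chr5:115348959-115349208, minus strand: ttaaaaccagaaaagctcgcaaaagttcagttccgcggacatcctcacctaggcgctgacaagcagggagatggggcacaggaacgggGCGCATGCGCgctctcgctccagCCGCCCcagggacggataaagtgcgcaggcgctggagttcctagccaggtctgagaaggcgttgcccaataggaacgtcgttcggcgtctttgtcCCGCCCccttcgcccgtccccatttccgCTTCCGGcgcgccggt
Cox7a2, chr9:79759854-79760103, minus strand: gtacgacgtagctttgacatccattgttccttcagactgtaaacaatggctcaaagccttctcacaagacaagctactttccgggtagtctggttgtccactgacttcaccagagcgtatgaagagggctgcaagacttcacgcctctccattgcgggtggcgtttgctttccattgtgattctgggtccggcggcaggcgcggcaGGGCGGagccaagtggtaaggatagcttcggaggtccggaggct
Cox7a2l, chr17:83514334-83514583, minus strand: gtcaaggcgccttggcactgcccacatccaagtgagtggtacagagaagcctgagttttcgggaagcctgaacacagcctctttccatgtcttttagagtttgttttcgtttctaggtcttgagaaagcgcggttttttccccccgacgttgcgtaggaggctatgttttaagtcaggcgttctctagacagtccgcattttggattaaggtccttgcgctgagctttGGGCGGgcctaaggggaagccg
Cox8a, chr19:7217617-7217866, minus strand: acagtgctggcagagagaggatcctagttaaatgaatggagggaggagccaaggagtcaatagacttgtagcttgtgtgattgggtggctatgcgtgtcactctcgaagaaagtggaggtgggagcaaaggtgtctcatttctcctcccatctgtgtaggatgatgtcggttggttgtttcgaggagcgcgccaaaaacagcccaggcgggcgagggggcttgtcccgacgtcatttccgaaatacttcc
Cox7a1, chr7:30183921-30184170, plus strand: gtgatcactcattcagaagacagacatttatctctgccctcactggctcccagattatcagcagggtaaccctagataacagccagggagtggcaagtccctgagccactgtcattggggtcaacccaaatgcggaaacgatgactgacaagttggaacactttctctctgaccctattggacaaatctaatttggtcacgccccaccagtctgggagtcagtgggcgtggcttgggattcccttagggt
Cox8b, chr7:140900447-140900696, minus strand: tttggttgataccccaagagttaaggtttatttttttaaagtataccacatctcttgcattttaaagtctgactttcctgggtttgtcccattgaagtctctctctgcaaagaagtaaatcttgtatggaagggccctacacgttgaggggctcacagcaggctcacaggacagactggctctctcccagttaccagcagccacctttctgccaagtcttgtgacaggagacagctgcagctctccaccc

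The windows of the ubiquitous forms Cox6a1, Cox7a2 and Cox8a held 26, 14 and 11 CpG dinucleotides and that of Cox7a2l held 13. Those of Cox7a1 and Cox8b held 4 and 1, whereas that of Cox6b2, also restricted to few tissues, held 8 and an SP motif. None of the 4 motifs stood in the windows of Cox7a1 and Cox8b, nor in that of the ubiquitous Cox8a. Cox7a2l, whose knockouts lay above the controls, and Cox7a2, whose knockouts lay below them, each held an SP motif. Of the members, 37 had at least 1 RefSeq window, 41 windows in all, with a median of 14 CpG against 6 over 32817 promoters. The NRF1 letters stood in 7.32% of member windows against 0.777% of all promoters, those of ETS in 22.0% against 6.90%, those of SP in 26.8% against 32.7% and those of YY1 in 4.88% against 1.56%. The windows with the NRF1 letters were those of Cox6a1, Atp5g2 and Atp5k. A match of letters is a description of the window and shows no binding.

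Complex V, the ATP synthase, made up the larger part of the members' counts in every library. Its 17 symbols had a median log2 fold change of −0.86, all 17 negative against 48.5% of all genes tested, and 3 were called lower against 6.64%. The calls were Atp5k, Atp5s and Atp5sl, of which only Atp5k codes for a subunit of the enzyme proper. Atp5b, the catalytic beta subunit, was the most abundant member by total count. Its levels were 3671, 3946 and 3311 CPM in the controls and 2699, 1271 and 1166 CPM in the knockouts. They did not overlap, and the log2 fold change was −1.09 (SE 0.41, adjusted p = 0.0997).

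Atp5k, subunit e of the membrane part, on which rows of dimeric enzyme depend, had the smallest adjusted p of all members. It had 219, 227 and 250 CPM in the controls and 159, 88.3 and 95.2 CPM in the knockouts, and fell by 1.02 on the log2 scale (SE 0.25, adjusted p = 0.0396). Atp5f1, subunit b of the peripheral stalk, had 637, 696 and 652 CPM against 501, 281 and 214 CPM, which was 50.1% of the control level (SE 0.33 on the log2 scale, adjusted p = 0.0726). Both separated the groups.

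At the other end of complex V stood Atp5d and Atp5g2. Atp5d, the delta subunit of the central stalk, had 425, 457 and 440 CPM in the controls and 416, 188 and 253 CPM in the knockouts, with knockout 1 just under the lowest control (log2 fold change −0.63, SE 0.30, adjusted p = 0.170). The c subunit that forms the rotor ring is coded by 3 genes whose mature proteins are the same. Atp5g1 had 351, 319 and 384 CPM against 298, 127 and 133 CPM (log2 fold change −0.92, SE 0.35, adjusted p = 0.103), and Atp5g3 had 900, 1002 and 1016 CPM against 796, 362 and 357 CPM (log2 fold change −0.95, SE 0.36, adjusted p = 0.0997). Atp5g2 had 228, 236 and 244 CPM against 213, 139 and 153 CPM, a log2 fold change of −0.49 (SE 0.20, adjusted p = 0.118). No 100-base stretch of the Atp5g2 transcript was free of copies elsewhere in the genome, and for Atp5l, a membrane subunit, 16.5% were, so the values of both are uncertain.

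The calls among the complex V symbols that are not subunits proper, named after their values were seen, were of modest size. Atp5s, also known as Dmac2l, had 15.7, 16.0 and 20.4 CPM in the controls and 10.8, 10.8 and 11.1 CPM in the knockouts, with a log2 fold change of −0.67 (SE 0.18, adjusted p = 0.0493). Its 3 knockouts were nearly level. The Atp5s call was lost with limma-voom (adjusted p = 0.0555), with upper quartile scaling (0.0725), with library size alone (0.174), with no filter (0.0560) and with at least 10 counts in every library (0.0532). Atp5sl, also known as Dmac2, which takes part in the assembly of complex I, had 85.1, 80.3 and 105 CPM against 63.7, 37.6 and 49.3 CPM (log2 fold change −0.84, SE 0.22, adjusted p = 0.0444), a call lost with upper quartile scaling (adjusted p = 0.0514) and with library size alone (0.0781).

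How far shared sequence touched the list could be measured. For 28 of the 45 members every 100-base stretch of the transcript was found nowhere in the genome outside the gene. These 28 had a median log2 fold change of −0.94, 27 of them negative and 6 called. For 11 members the share was under 90%, with a median of −0.82 and 2 calls. Of all genes tested, 48.5% were negative and 6.64% called lower. Exons of Atp5d, Atp5f1, Atp5j, Atp5o, Cox5a, Cox6a2, Cox6c, Uqcrb and Uqcrc2 overlap those of another gene in GENCODE M1, most on the opposite strand, and as the strand setting of the counting is not given in the sources used here, their counts may include reads of the neighbour.

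Other genes of the same complexes also had mostly negative fold changes, with a median closer to 0. Of 44 such genes listed, 37 were in the tables and 36 were tested, since Sco2, a copper chaperone of complex IV, had 0 counts. Of the 36, 7 were called lower and none higher, beside 6.64% and 10.6% of all genes, 35 had a negative fold change, and the median was −0.51. The largest falls among the calls were those of Coa6, which takes part in copper delivery to complex IV (log2 fold change −1.14, SE 0.23, adjusted p = 0.0309), Usmg5, a small protein attached to ATP synthase (−1.04, SE 0.27, adjusted p = 0.0450), and Tmem70, which assembles the ring of that enzyme (−0.98, SE 0.20, adjusted p = 0.0324).

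Coa6 had 35.0, 45.8 and 41.5 CPM in the controls and 24.5, 15.4 and 15.6 CPM in the knockouts, and Tmem70 had 77.3, 84.8 and 87.2 CPM against 55.4, 36.6 and 34.5 CPM. Neither gene overlapped between the groups. The other calls named by size were Uqcc1, an assembly factor of complex III (log2 fold change −0.89, adjusted p = 0.0476), Cox11, which inserts copper (−0.86, adjusted p = 0.0431), and Cox15, which makes the heme a of complex IV (−0.84, adjusted p = 0.0394).

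By complex, the median of the assembly factors lay closer to 0 than that of the subunits, a difference that was not tested. The 4 factors of complex II had a median of −0.34 against −1.01 for its subunits, the 6 of complex III −0.40 against −0.93, the 17 of complex IV tested −0.46 against −0.90 and the 3 of complex V −0.78 against −0.86. Sdhaf2, which adds the flavin to Sdha, was nearly level, at 43.7, 45.1 and 44.7 CPM in the controls and 41.1, 39.5 and 43.4 CPM in the knockouts (log2 fold change −0.11, SE 0.11, adjusted p = 0.515). Its direction turned with scaling to library size alone, at 0.17.

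Subunit 4 of cytochrome c oxidase, whose symbols fell outside the selection, has a common form and a form known to respond to low oxygen. Cox4i1, the common form, had 792, 832 and 928 CPM in the controls and 744, 360 and 414 CPM in the knockouts (log2 fold change −0.75, SE 0.31, adjusted p = 0.125). Cox4i2 had 1.10, 1.53 and 2.22 CPM in the controls and 2.85, 1.91 and 5.90 CPM in the knockouts. The groups overlapped, and the log2 fold change of 1.13 (SE 0.51, adjusted p = 0.152) did not pass. Per kilobase Cox4i2 was 0.119% to 0.206% of the pair in the controls and 0.329% to 1.21% in the knockouts.

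The 35 subunits of complex I had a median log2 fold change of −0.83, all 35 negative, with 9 called lower, and 77 mitochondrial ribosomal proteins had a median of −0.46, with 75 negative and 10 called lower; of all genes tested, 48.5% were negative and 6.64% called lower. Summed, complex I went from between 6771 and 7435 CPM in the controls to 5621, 2948 and 3120 CPM in the knockouts, and the ribosomal proteins from between 4004 and 4312 CPM to 3606, 2431 and 2697 CPM. In each list knockout 1 lay nearest to the controls. The median of the members of complexes II to V lay close to that of complex I, and the differences between these medians were not tested.

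Among the marker lists of kidney tubule segments, only that of the proximal tubule had every knockout sum below every control sum. The summed level of 12 proximal tubule markers was 14660, 18920 and 20650 CPM in the controls and 7234, 3231 and 2568 CPM in the knockouts, with 9 of 12 called lower, all 12 negative and a median log2 fold change of −2.14, beside 6.64% called lower and 48.5% negative among all genes tested. Lrp2, the endocytic receptor megalin, fell by 2.43 on the log2 scale (adjusted p = 0.0326). Slc7a13, also among the 12, had 879.5 CPM in control 2 but 10.8 and 1.14 CPM in controls 1 and 3. Its knockouts had 18.1, 2.01 and 0.843 CPM, so its negative fold change rested on control 2. The 6 markers of the thick ascending limb summed to 11720, 11530 and 5305 CPM in the controls and to 6923, 908 and 1218 CPM in the knockouts, where control 3 lay below knockout 1, and none was called. The 4 markers of the distal convoluted tubule summed to 1211, 1200 and 1826 CPM against 1310, 581 and 98.1 CPM, with 1 called lower, and the 6 of the collecting duct to between 913 and 1268 CPM against 458 to 1515 CPM, with none called.

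Markers of immune cells and fibroblasts, which are poorer in mitochondria than tubules, were higher in the knockouts when summed. The 9 immune markers summed to between 182 and 204 CPM in the controls and to 540, 1903 and 737 CPM in the knockouts, with 7 called higher and none at 0 in all libraries. The 6 fibroblast markers summed to between 301 and 586 CPM against 935, 3789 and 3727 CPM, with 4 called higher, and 10.6% of all genes tested were called higher. Of 4 adrenal markers 1 had enough counts to be tested and was not called. Knockout 1, which kept most of its subunit transcripts, also had the highest proximal tubule and thick ascending limb sums and the lowest immune and fibroblast sums of the knockouts. The part of cell composition in the lower subunit levels was not tested.

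**Figure D4:**
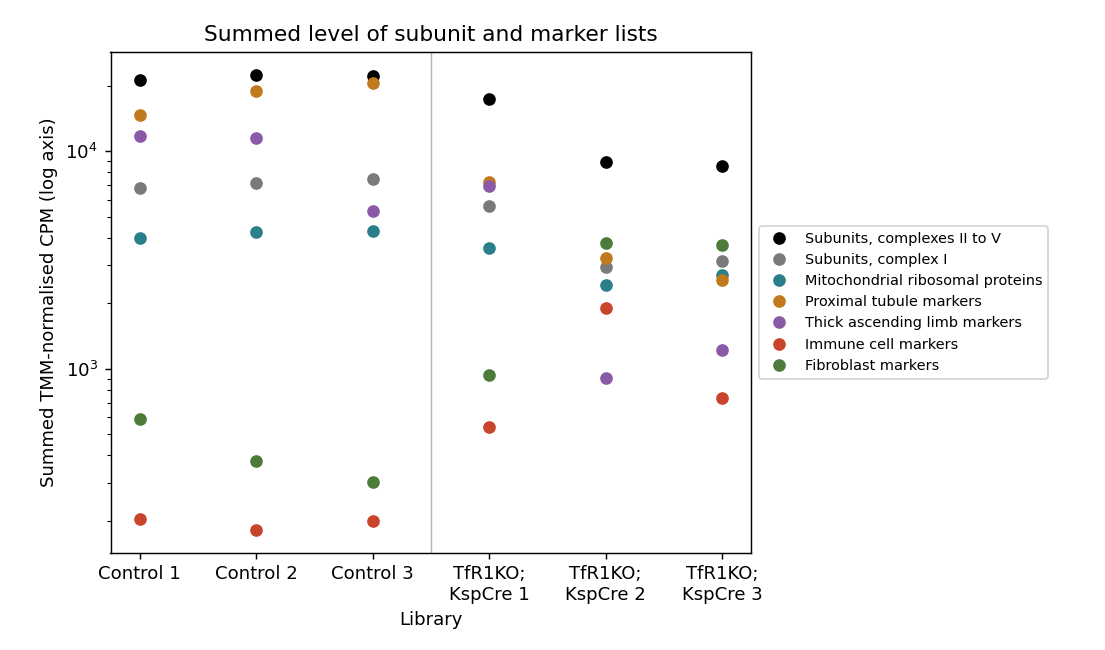
Summed TMM-normalised CPM (log axis) of the 45 members, of complex I subunits, of mitochondrial ribosomal proteins and of marker lists for 4 cell types, one point per library. The members lie between 21230 and 22510 in the controls and at 17430, 8897 and 8568 in knockouts 1 to 3, and the proximal tubule list is lower in the same libraries in which the immune and fibroblast lists are higher.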

How the data were processed

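RNA was extracted from whole kidney, and poly-A libraries were sequenced with single-end reads. Per the methods of the study and its processing notes, the authors called bases with CASAVA 1.8.2, trimmed reads with Trimmomatic, aligned them to mm9 with TopHat2 2.0.11, and used HTSeq to count uniquely mapped reads for each gene; annotation and strand setting are not given in the sources used here. The deposited numbers are unnormalized counts for each gene. Sample titles gave the groups and replicate numbers, and do not say whether libraries are paired.

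Counts were analysed in R 4.3.3 with edgeR 4.0.16 (filterByExpr with a minimum count of 10 and a minimum total of 15, TMM, legacy quasi-likelihood test over all 6 libraries, no covariate), with Benjamini-Hochberg adjustment over 15171 genes and calls at an adjusted p under 0.05. DESeq2 1.42.0 and limma 3.58.1 served as alternatives, beside other scalings and filters, each library left out in turn, a replicate block and a covariate of Xist to Y-linked counts. The script was tested on simulated data. For shared sequence, the 100-base words of each member's longest GENCODE M1 coding transcript were searched in the mm9 genome outside the gene. Genes named are the iron-binding members, the 3 lowest and 2 highest fold changes in each complex, all isoform pairs, the 3 most abundant per kilobase and up to 6 called genes of the rest of the pathway, with exceptions stated. Members and lists were chosen with earlier results of these data known. The labels do not say how the kidneys relate, so p-values measure the spread between these libraries.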

Additional observations from a re-analysis of the deposited data

How the results depend on the processing

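The members' median log2 fold change stayed negative under every alternative run, between −1.30 (without knockout 1) and −0.65 (library size alone), and 42 to 44 members were negative. The number called did not hold. Leaving out each library in turn gave 0 to 42 members and 0 to 5332 genes called, with medians from −1.30 to −0.73. Without a single control no gene was called (1933 to 2209 genes were lower at an unadjusted p under 0.05), without knockout 2 there were 73 and without knockout 3 only 2. DESeq2's Wald test called 4882 genes and 40 members, against 2612 and 8. Library size alone gave 5 members, 4 lower and 1 higher (3647 genes, 662 lower, which is 4.36%, and 2985 higher), and a minimum of 10 counts in every library gave 5 of 44 tested, all lower (6.56% of all genes). DESeq2 size factors and the newer quasi-likelihood version each gave 11, all lower (7.55% and 7.09% of all genes were called lower), limma-voom 8 (6.05%), and upper quartile scaling and no filter 6 each (6.03% and 4.80%). The replicate block gave 0 genes and 0 members (38 members and 17.1% of all genes lower at an unadjusted p under 0.05). Deviations of same-numbered libraries from their group means had correlations of −0.13, 0.012 and 0.21. With 3 libraries in each group, these cannot show whether the numbers pair the samples. The covariate of Xist to Y-linked counts gave 0 and 0 (25 members and 12.3% of all genes lower at an unadjusted p under 0.05), with control 2 the library it separates. The cause of these losses was not tested. Directions turned for Cox6b2 without control 2 (−0.0698, where the range over libraries left out went up to 0.62) and with the covariate (−0.0481), for Sdhaf2 (0.17), Sdhaf3 (0.0279), Ttc19 (0.0901) and Uqcc2 (0.18) with library size alone, and for Uqcc2 without control 3 (0.0462) and without knockout 2 (0.0871, with −0.24 as the lowest value without a library). Depth limits chiefly Cox6a2, with 3 counts in knockout 2.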
